A study of Mus musculus with 8 samples.

Results

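The genes examined here mark mesoderm and endoderm, the germ layers that an embryo forms from its epiblast, in mouse embryonic stem cells whose CnAb1 transcript was targeted with small interfering RNA (siRNA). A list of 34 genes was named, from the first regulators of the primitive streak to products of yolk sac endoderm, and 33 of them were found among the 19935 genes of the array by gene symbol. Tbxt was not matched to a probe set with a single symbol, so its expression was not analysed here, and it enters only the counts of upstream sequence. The line was R1, an established line of mouse embryonic stem cells, kept under conditions for pluripotency, and their RNA was taken 48 hours after transfection. A control siRNA was given to 3 samples, siRNA 1 against CnAb1 to 3 samples and siRNA 2 against CnAb1 to 2 samples. All 8 samples came from this line and had all been transfected. CnAb1 is a splice form of the calcineurin A beta gene, which encodes a catalytic subunit of a calcium-dependent phosphatase. The comparison asks whether lineage genes differ between cells given either siRNA and cells given the control.

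In the embryo, epiblast cells that pass through the primitive streak become mesoderm or definitive endoderm under Nodal, Wnt and BMP signals, and T-box, homeobox and basic helix-loop-helix factors act early in this step. Primitive endoderm arises earlier, in the blastocyst, under the GATA factors, and its descendants lay down laminin-rich basement membrane and take up nutrients. Embryonic stem cells kept pluripotent hold most of these genes at low activity, while a small number of cells in a culture can leave that state.

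Values are log2 expression after RMA, a procedure that corrects background, normalises between arrays and summarises the probes of a probe set. The medians of the arrays lay between 8.12 and 8.20, correlations between arrays between 0.9949 and 0.9989, and 0 pairs of arrays held identical values. All 15 markers of embryonic stem cells lay above the array medians, with control means from 10.71 to 13.74. Nothing in the labels tells whether the replicates were separate cultures. The p-values therefore measure only how far these samples spread, which may be technical variation, and the number of arrays limits the precision. In such bulk RNA, fewer cells of a type and less RNA per cell cannot be told apart. The knock-down of CnAb1 was not checked, because the splice form was not matched to a probe set. The probe set of its gene as a whole, Ppp3cb, does not separate splice forms: its level was 10.70, 10.55 and 10.64 with control siRNA, 10.52, 10.68 and 11.09 with siRNA 1 and 11.07 and 11.16 with siRNA 2.

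The sequences upstream of the members were compared first, because they range from CG-rich to CG-poor, a feature on which mouse promoters differ widely. RefSeq (GRCm38.p6) gave a window for 24 of the 34 genes, and the 250 bases before the annotated start were read. The 6 windows are shown for genes that the results below return to, each 5′ to 3′ on the gene's strand, with every CG in capitals. Lhx1 stands for the CG-rich end, Afp for the CG-poor end, Sparc, Cubn and Dab2 are endoderm products, and Dab2 has a second, more CG-rich start.
Lhx1: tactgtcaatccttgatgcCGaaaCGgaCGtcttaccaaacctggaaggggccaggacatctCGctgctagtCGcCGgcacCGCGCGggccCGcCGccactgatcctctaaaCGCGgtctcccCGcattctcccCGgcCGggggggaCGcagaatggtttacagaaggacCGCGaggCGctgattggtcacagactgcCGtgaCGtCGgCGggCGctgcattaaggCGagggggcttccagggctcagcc
Afp: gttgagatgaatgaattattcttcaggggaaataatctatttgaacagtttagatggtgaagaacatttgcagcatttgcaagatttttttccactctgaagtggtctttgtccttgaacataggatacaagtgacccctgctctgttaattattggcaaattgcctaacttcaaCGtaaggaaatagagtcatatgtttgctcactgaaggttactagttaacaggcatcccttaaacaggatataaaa
Sparc: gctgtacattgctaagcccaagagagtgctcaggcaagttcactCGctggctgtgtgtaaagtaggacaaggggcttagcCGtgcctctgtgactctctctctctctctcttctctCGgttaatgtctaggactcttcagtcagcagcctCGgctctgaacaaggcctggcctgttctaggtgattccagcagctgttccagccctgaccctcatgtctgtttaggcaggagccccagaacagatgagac
Cubn: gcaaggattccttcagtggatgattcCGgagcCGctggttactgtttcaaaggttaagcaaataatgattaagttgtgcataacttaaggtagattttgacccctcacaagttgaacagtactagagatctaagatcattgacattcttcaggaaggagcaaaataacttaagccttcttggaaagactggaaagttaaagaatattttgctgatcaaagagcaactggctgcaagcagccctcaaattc
Dab2, first start: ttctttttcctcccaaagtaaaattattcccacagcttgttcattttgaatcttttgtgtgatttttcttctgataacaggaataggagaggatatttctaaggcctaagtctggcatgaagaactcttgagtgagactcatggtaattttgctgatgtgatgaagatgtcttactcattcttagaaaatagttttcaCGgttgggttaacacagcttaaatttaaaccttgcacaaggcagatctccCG
Dab2, second start: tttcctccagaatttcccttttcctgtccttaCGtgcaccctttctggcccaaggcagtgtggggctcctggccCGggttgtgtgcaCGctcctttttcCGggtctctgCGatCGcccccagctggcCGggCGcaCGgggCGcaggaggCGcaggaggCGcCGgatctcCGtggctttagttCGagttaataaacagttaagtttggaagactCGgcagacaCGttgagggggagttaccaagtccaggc

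The windows are Lhx1 at chr11:84525535-84525784 (minus strand), Afp at chr5:90490464-90490713 (plus strand), Sparc at chr11:55420081-55420330 (minus strand), Cubn at chr2:13491877-13492126 (minus strand), and Dab2 at chr15:6299539-6299788 and chr15:6386498-6386747 (both plus strand). The Lhx1 window held 26 CG dinucleotides and that of Snai1 27, while those of Cubn and Mesp1 held 2 each and that of Afp held 1. The first start of Dab2 had 2 and the second 17. Streak and nascent mesoderm factors had a median of 9 over 10 genes, endoderm products a median of 4 over 7 genes, and all 27025 genes with a window a median of 6. A ratio of observed to expected CG above 0.6 was found for 8 of 24 members (33.3%) and for 34.5% of all genes. The GATA motif, searched on both strands as AGATAA or TGATAA, was present in 4 of 24 members (16.7%) and in 17.0% of all genes. The letters TATAAA, on both strands, were present in 4 of 24 members (16.7%) and in 12.97% of all genes. The plot of CG dinucleotides sets the genes side by side.

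**Figure D1:**
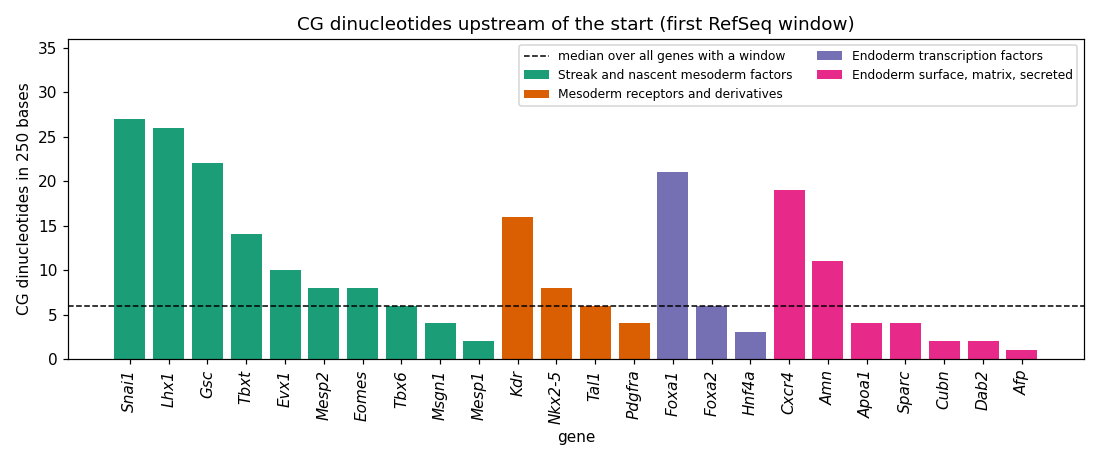
CG dinucleotides in the 250 bases before the first annotated start of 24 genes, grouped by role, with the median of all genes as a dashed line at 6. Bars run from 1 for Afp to 27 for Snai1, and the 3 highest, Snai1, Lhx1 and Gsc, are streak factors.

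Most members gave a signal above that of genes not known to act in stem cells. The 1015 olfactory receptor genes served as that reference, and the 95th percentile of their means was 7.36. Of the 33 members, 29 (87.9%) lay above it, against 70.6% of all genes. The other 4 were Mesp1, Tbx5, Afp and Ttr, and Tbx5 and Ttr also lay below the lowest lower quartile of the arrays. Above the highest array median lay 20 of 33 members (60.6%), against 53.1% of all genes: 8 of 11 streak factors, 2 of 6 mesoderm receptors and derivatives, 5 of 7 endoderm factors and 5 of 9 endoderm products. Probe sets differ in affinity, so these counts describe signal and do not rank transcripts, and no detection calls were used. The plot of levels shows every array.

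**Figure D2:**
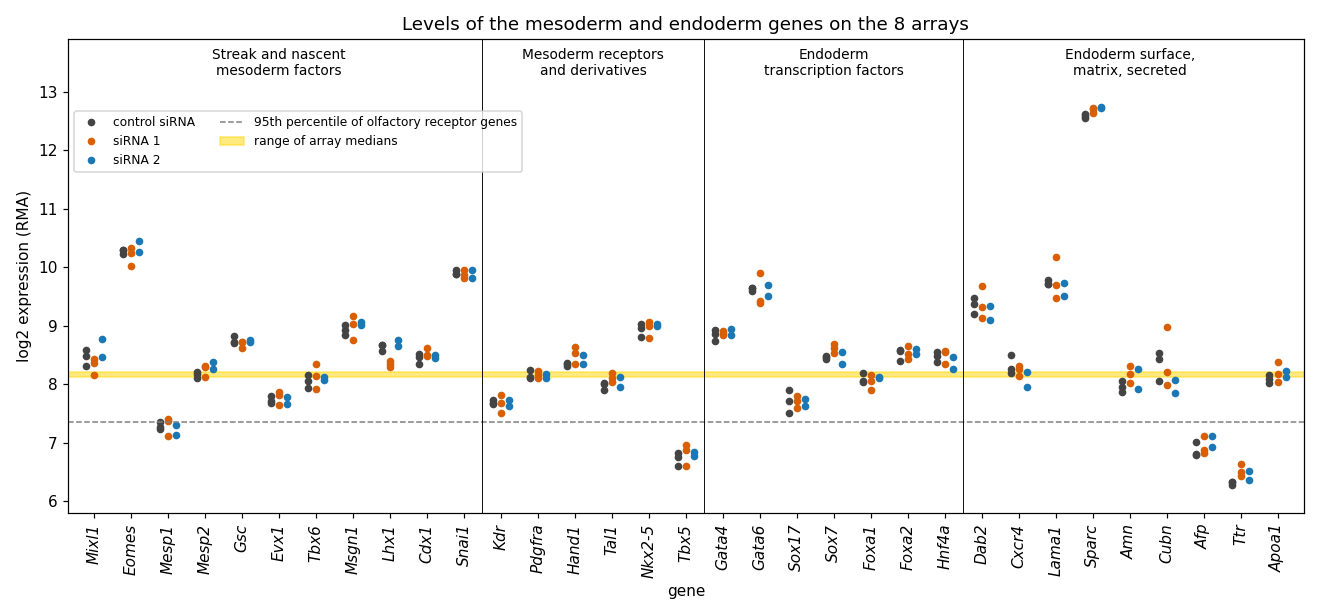
Log2 expression (RMA) of the 33 genes on each of the 8 arrays, coloured by group and ordered by role, with the range of the array medians (8.12 to 8.20) as a band and the 95th percentile of olfactory receptor genes (7.36) as a dashed line. The points of a gene mostly lie close together, Cubn and Lama1 spread widely, and Sparc is at the top.

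No lineage gene was called between the siRNA groups and control at an adjusted p under 0.05. For the average of both siRNAs the differences ran from -0.16 for Cubn to 0.17 for Amn on the log2 scale, with standard errors (SE) from 0.05 to 0.20. Called members numbered 0 of 33, as did called genes overall (0.0% of 19935), with the smallest adjusted p among members 0.769 (limma, Benjamini-Hochberg over all genes). At an unadjusted p under 0.05, limma counted 2 members higher, Sparc and Ttr, where 3.28% of all genes were higher, and 0 lower, where 3.03% were lower. With array weights limma called 0 members and 14 genes overall. Every siRNA array lay above every control array for 2 members, again Sparc and Ttr, against 2.49% of all genes, and below for 0 members, against 2.25%. The median difference was 0.02 over the members, 19 higher and 14 lower, and 0.01 over all genes. The 95% interval included 0 for 31 of 33 members and stayed within a 1.5-fold change for 32, Cubn being the exception with an interval from -0.62 to 0.29. The sign of the average held in every alternative fit that held the gene for 15 of 33 members. Of those fits 17 held all members, and the filter on dim genes held 17 of the 33 members. Leaving out 1 array at a time gave 1 to 10 members at an unadjusted p under 0.05. The 1 (3.03%) came without control replicate 1 (4.81% of all genes), control replicate 2 (2.22%) or siRNA 2 replicate 1 (4.17%). Without control replicate 2, the lowest array for both Sparc and Ttr, that 1 member was lower and 0 were higher. Neither Sparc nor Ttr thus passed there. The count was 4 (12.1%) without siRNA 2 replicate 2, where 6.88% of all genes had such a p. It was 10 without siRNA 1 replicate 1, where 18.0% of all genes did. The plot of differences gives each interval.

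**Figure D3:**
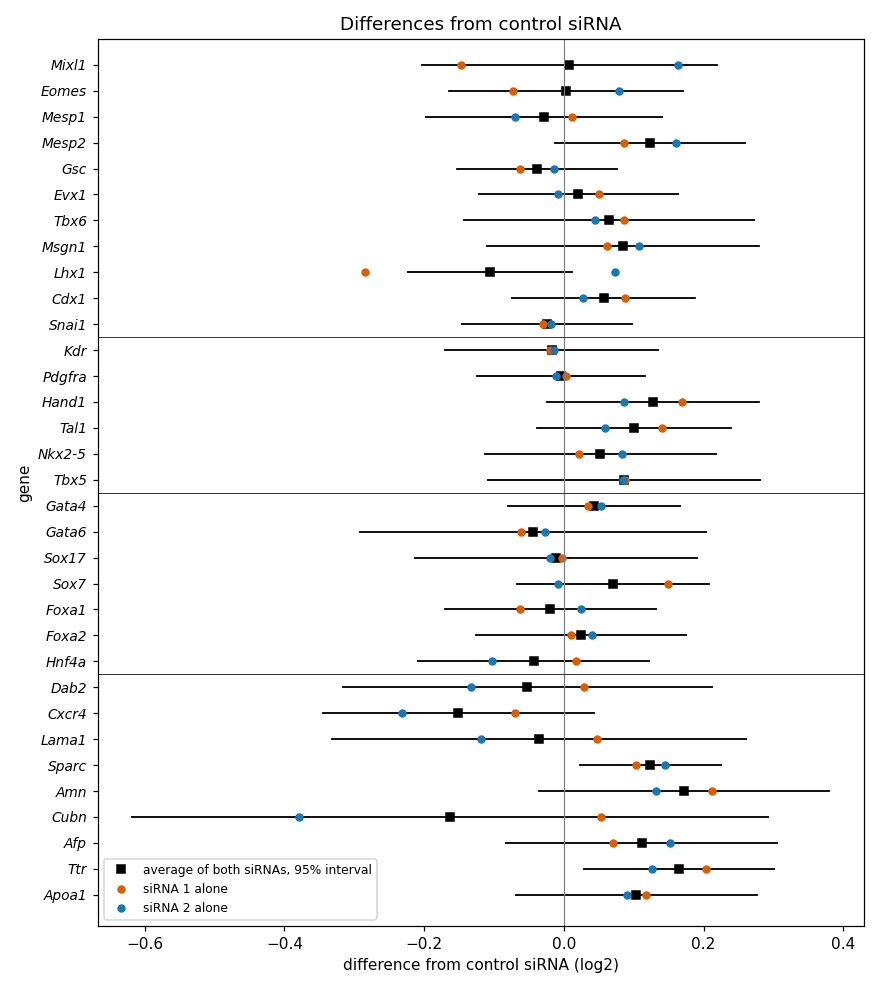
Differences from control siRNA on the log2 scale, with the average of both siRNAs as squares with 95% intervals and each siRNA alone as coloured points. The intervals of 31 of 33 genes include 0, those of Sparc and Ttr lie above it, and the siRNA 1 and siRNA 2 points of Lhx1 lie on opposite sides of 0.

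Among the streak and nascent mesoderm factors, 7 were higher and 4 lower on average, between -0.11 for Lhx1 and 0.12 for Mesp2, and 0 of 11 reached an unadjusted p under 0.05. Eomes, a T-box factor needed for definitive endoderm and early mesoderm, ranged over the arrays from 10.02 to 10.44 and differed by 0.0028 (SE 0.07). Mixl1, a homeobox factor of the streak, differed by 0.0078 (SE 0.09) and ranged from 8.16 to 8.78. Both averages are smaller than their SE, though Mixl1 differed between the siRNAs, as given below. Gsc, a homeobox factor of the organizer, stayed between 8.62 and 8.82 and differed by -0.04 (SE 0.05). Snai1, a zinc finger repressor that drives the loss of epithelial character, stayed between 9.81 and 9.95 and differed by -0.02 (SE 0.05). Evx1, a homeobox gene of the posterior streak, differed by 0.02 (SE 0.06) between 7.65 and 7.87. All 3 differences are smaller than their SE.

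The basic helix-loop-helix and T-box genes of nascent and paraxial mesoderm also had differences within 0.12. Mesp2, which acts in somite segmentation, lay at 8.17, 8.21 and 8.10 in control, 8.12, 8.32 and 8.30 with siRNA 1 and 8.27 and 8.37 with siRNA 2. One siRNA 1 array fell within the control range and the other siRNA arrays lay above it, an average difference of 0.12 (SE 0.06, limma adjusted p = 0.769). Mesp1, an early factor of cardiac mesoderm, differed by -0.03 (SE 0.08) over a range from 7.12 to 7.41. Its mean lay under the reference of 7.36. Msgn1 of the presomitic mesoderm differed by 0.08 (SE 0.09) and Tbx6, which directs paraxial mesoderm away from a neural fate, by 0.06 (SE 0.09). Cdx1, a caudal homeobox gene of the posterior axis, differed by 0.06 (SE 0.06). For Msgn1, Tbx6 and Cdx1 the siRNA and control arrays overlapped.

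Receptors and factors of mesoderm derivatives gave 4 higher and 2 lower, and 0 of 6 reached an unadjusted p under 0.05. Kdr, the VEGF receptor of endothelial precursors, differed by -0.02 (SE 0.07) and Pdgfra, a receptor of paraxial and cardiac mesoderm, by -0.0040 (SE 0.05). Hand1, a factor of extraembryonic and heart mesoderm, lay at 8.31, 8.36 and 8.34 in control, 8.35, 8.63 and 8.53 with siRNA 1 and 8.49 and 8.35 with siRNA 2. Higher arrays occurred with both siRNAs, 1 array of each lay beside the controls, and the difference was 0.13 (SE 0.07, limma adjusted p = 0.769). Tal1, a factor of blood precursors, differed by 0.10 (SE 0.06). The heart factors Nkx2-5 and Tbx5 differed by 0.05 (SE 0.07) and 0.09 (SE 0.09). Tbx5 kept a signal from 6.60 to 6.97 on all arrays, under the reference of 7.36.

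Endoderm transcription factors gave 3 higher and 4 lower and the narrowest range of differences, from -0.04 to 0.07, with 0 of 7 at an unadjusted p under 0.05. Gata4, which acts in primitive and visceral endoderm and heart, stayed between 8.75 and 8.94 and differed by 0.04 (SE 0.06). Sox17, an HMG-box factor of definitive and primitive endoderm, ranged from 7.50 to 7.91 and differed by -0.01 (SE 0.09), and its relative Sox7 differed by 0.07 (SE 0.06). The forkhead factors Foxa1 and Foxa2, which open chromatin in gut and liver endoderm, differed by -0.02 (SE 0.07) and 0.02 (SE 0.07). Hnf4a, a nuclear receptor of visceral endoderm and liver, differed by -0.04 (SE 0.07). Gata6, the factor that specifies primitive endoderm, differed by -0.04 (SE 0.11). It had the widest spread of the 7, through 1 array described below.

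Among the surface, matrix and secreted products of endoderm, 5 were higher and 4 lower, and both members at an unadjusted p under 0.05 belong to this group. Sparc, a secreted matrix glycoprotein that parietal endoderm makes in quantity and fibroblasts make too, lay at 12.58, 12.55 and 12.62 in control, 12.70, 12.64 and 12.72 with siRNA 1, and 12.73 and 12.73 with siRNA 2. The groups did not overlap, but the lowest siRNA array was close to the highest control. The difference was 0.12 (SE 0.05, 95% interval 0.02 to 0.23, limma adjusted p = 0.769), and the exact permutation test over the 8 arrays gave a two-sided p of 0.0179, the smallest that its 56 splits allow. Ttr, which carries thyroid hormone and is made by visceral endoderm and liver, lay at 6.33, 6.28 and 6.33 in control, 6.43, 6.64 and 6.49 with siRNA 1, and 6.52 and 6.37 with siRNA 2. Every siRNA array lay above every control array, though all 8 were under the olfactory receptor reference. The difference was 0.16 (SE 0.06, 95% interval 0.03 to 0.30, limma adjusted p = 0.769), with an exact permutation p of 0.0357. These members were picked by their unadjusted p in the same comparison, so the exact tests are not independent of that choice.

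Fibroblast markers were measured beside Sparc, since stem cells are often grown on feeder cells, a point the labels leave unstated. Of 11 measured, 8 were higher and 3 lower on average, and 0 were called by limma. At an unadjusted p under 0.05, 3 were higher, where 3.28% of all genes were, and 0 lower, where 3.03% were. The 3 were Col1a2 at 0.17 (SE 0.06), Col1a1 at 0.14 (SE 0.05) and Acta2 at 0.22 (SE 0.09). Dcn went the other way, at -0.17 (SE 0.12). The mean level of the list ran from 9.61 to 9.75 in control arrays, 9.67 to 9.86 with siRNA 1, and was 9.73 on both siRNA 2 arrays. Its part in the Sparc difference was not tested.

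Among the remaining products the groups overlapped. Amn and Cubn encode partners of the receptor for intrinsic factor and vitamin B12, also used for uptake in visceral endoderm. Amn lay at 7.94, 7.87 and 8.05 in control, 8.01, 8.31 and 8.17 with siRNA 1 and 8.26 and 7.92 with siRNA 2, an overlap of the groups with a difference of 0.17 (SE 0.09). Cxcr4, a chemokine receptor of definitive endoderm, lay at 8.49, 8.25 and 8.19 in control, 8.31, 8.27 and 8.15 with siRNA 1 and 7.94 and 8.22 with siRNA 2. The lowest value was an siRNA 2 array and the highest a control array, with a difference of -0.15 (SE 0.09). Apoa1 and Afp, lipid carrier and fetal serum protein of yolk sac and liver, differed by 0.10 (SE 0.08) and 0.11 (SE 0.09). The Afp signal, from 6.79 to 7.12, stayed under the reference.

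With each siRNA alone, limma called 0 members and 0.0% of all genes at an adjusted p under 0.05, and the counts at unadjusted p were again small. These comparisons share the control arrays and are given side by side without a relation between them. For siRNA 1, 2 members were higher (3.03% of all genes were) and 1 was lower (2.3% of all genes). These were Ttr with 0.20 (SE 0.07), Hand1 with 0.17 (SE 0.08) and Lhx1 with -0.29 (SE 0.06), and the smallest adjusted p was 0.805. With siRNA 2, Sparc was the 1 member higher, at 0.15 (SE 0.06), where 2.56% of all genes were, and 0 were lower, where 3.52% were. The exact permutation tests of these 4 gave p values of 0.1 to 0.2, and 0.1 is the smallest that such group sizes allow. The members' median was 0.03 for siRNA 1 and 0.04 for siRNA 2, and that of all genes was 0.02 and 0.01. For siRNA 1 with array weights, limma called 5 of 33 members (Hand1, Lhx1, Sox7, Tal1 and Ttr) and 1436 of all 19935 genes. There, 30.3% of members and 29.0% of all genes had an unadjusted p under 0.05. That setting gave siRNA 1 replicate 3 a weight of 3.56 against 0.31 and 0.41 for the other siRNA 1 arrays. The adjusted p of Lhx1 was 0.0224 there, and ran from 0.0224 to 1.00 over the alternatives.

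Lhx1 and Mixl1 had the smallest unadjusted p among the members between the siRNAs. Lhx1, a LIM homeobox factor of the streak and anterior mesendoderm, lay at 8.67, 8.56 and 8.67 in control, 8.40, 8.29 and 8.35 with siRNA 1, and 8.66 and 8.75 with siRNA 2. All 3 siRNA 1 arrays were below all controls, and of the siRNA 2 arrays 1 lay within the control range and 1 above it. Mixl1 lay at 8.59, 8.49 and 8.30 in control, 8.36, 8.16 and 8.42 with siRNA 1, and 8.47 and 8.78 with siRNA 2. Its siRNA 1 arrays all lay under the siRNA 2 arrays, and the controls overlapped both. For siRNA 2 against siRNA 1, Lhx1 was higher by 0.36 (SE 0.06, 95% interval 0.21 to 0.50) and Mixl1 by 0.31 (SE 0.12, 95% interval 0.05 to 0.57). The limma adjusted p was 1.00 for both, and the exact permutation p was 0.1 for each, the smallest 10 splits allow. These were the 2 members higher at an unadjusted p under 0.05 (1.45% of all genes), with 0 lower (3.02%), and 0 members and 0.0% of all genes were called. Of the 28 other endoderm genes, 5 had an unadjusted p under 0.05 between the siRNAs, where 4.48% of all genes did, and limma called 0. With siRNA 2, 4 were lower: the homeobox factor Hhex at -0.25 (SE 0.10), the retinol carrier Rbp4 at -0.20 (SE 0.08), the collagen chain Col4a2 at -0.18 (SE 0.06) and the apolipoprotein Apoe at -0.16 (SE 0.07). The 1 that was higher was Cer1, a secreted Nodal, BMP and Wnt antagonist of anterior endoderm, at 0.46 (SE 0.11). These 5 genes were named after their values were seen. Cer1 read 9.20, 9.03 and 9.04 in control, 8.33, 8.55 and 8.74 with siRNA 1 and 8.93 and 9.07 with siRNA 2. Its siRNA 1 arrays were under the others. The plot of single genes shows Cer1 beside 4 members.

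**Figure D4:**
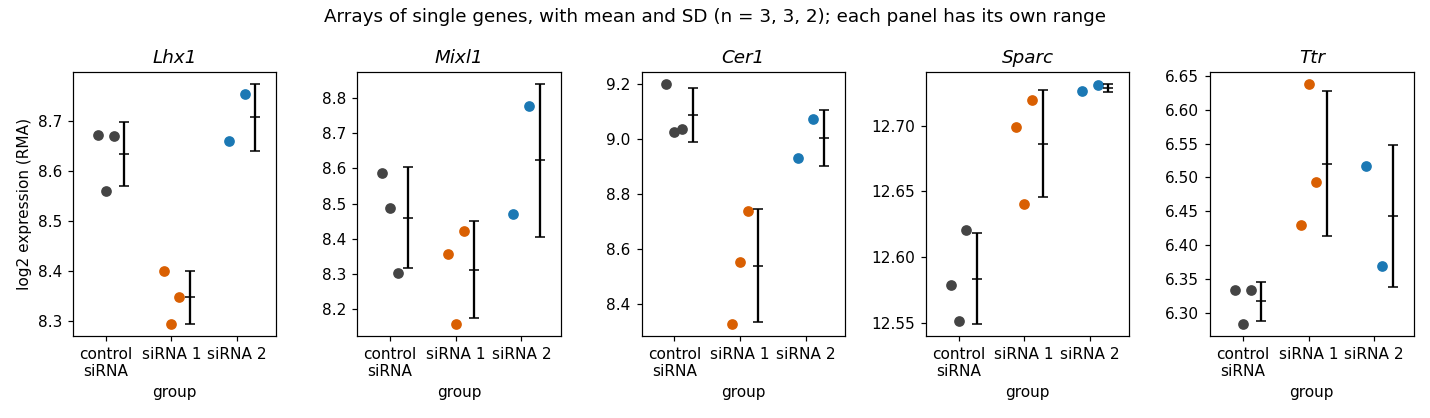
Log2 expression of Lhx1, Mixl1, Cer1, Sparc and Ttr by group, with points for arrays and bars for mean and SD (n = 3 for control, 3 for siRNA 1 and 2 for siRNA 2), each panel on its own range. Lhx1 with siRNA 1 lies between 8.29 and 8.40, under the controls at 8.56 to 8.67, and both siRNA groups of Sparc and Ttr lie above the controls. Cer1 was the 1 of 28 other endoderm genes higher with siRNA 2 than with siRNA 1 at an unadjusted p under 0.05. Of all genes 1.45% were.

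On siRNA 1 replicate 1, 4 of 33 members had their highest value (12.1%), where 18.7% of all genes did, and all 4 were endoderm genes. They were chosen after their values were seen, so what they share is a description. Gata6 read 9.59, 9.65 and 9.64 in control, 9.90, 9.42 and 9.38 with siRNA 1 and 9.51 and 9.69 with siRNA 2. Dab2, an endocytic adaptor of primitive endoderm, read 9.20, 9.47 and 9.37, then 9.67, 9.13 and 9.32, and then 9.10 and 9.33. Lama1, the laminin chain of embryonic basement membrane, read 9.71, 9.78 and 9.71, then 10.17, 9.70 and 9.48, and then 9.51 and 9.73. In each gene the highest value is siRNA 1 replicate 1, and the other siRNA 1 arrays lie within or under the range of the controls. Cubn, the endocytic receptor named above, read 8.06, 8.54 and 8.43, then 8.98, 7.98 and 8.21, and then 7.85 and 8.07, so its controls also varied. Dab2 is represented by its brighter probe set, and a second probe set for it stayed between 5.43 and 5.59 without that peak. The mean of that second probe set, 5.50, lay under the olfactory receptor median of 5.85. At so dim a signal, the lack of a peak cannot be read.

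On that array the 4 genes lay 0.45 above their own means over the 8 arrays, on average, against -0.24 to 0.13 on the other arrays. They were chosen for their peak there, and the endoderm groups that include them did not all rise. The 7 endoderm transcription factors averaged -0.03 on that array, with 3 above their own mean. The 9 endoderm products averaged 0.15, with 6 above. Of the streak factors, 0 of 11 lay above their own mean there, with an average of -0.10. Macrophage and blood markers lay above their own means for 8 of 8 genes there (average 0.25) and fibroblast markers for 10 of 11 (average 0.14). The mean level of the macrophage list ran from 7.98 to 8.27 in control, 8.07 to 8.43 with siRNA 1 and 8.12 to 8.19 with siRNA 2, and 0 of its 8 genes reached an unadjusted p under 0.05. The part of either list in the pattern was not tested. The plot by array shows all of these.

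**Figure D5:**
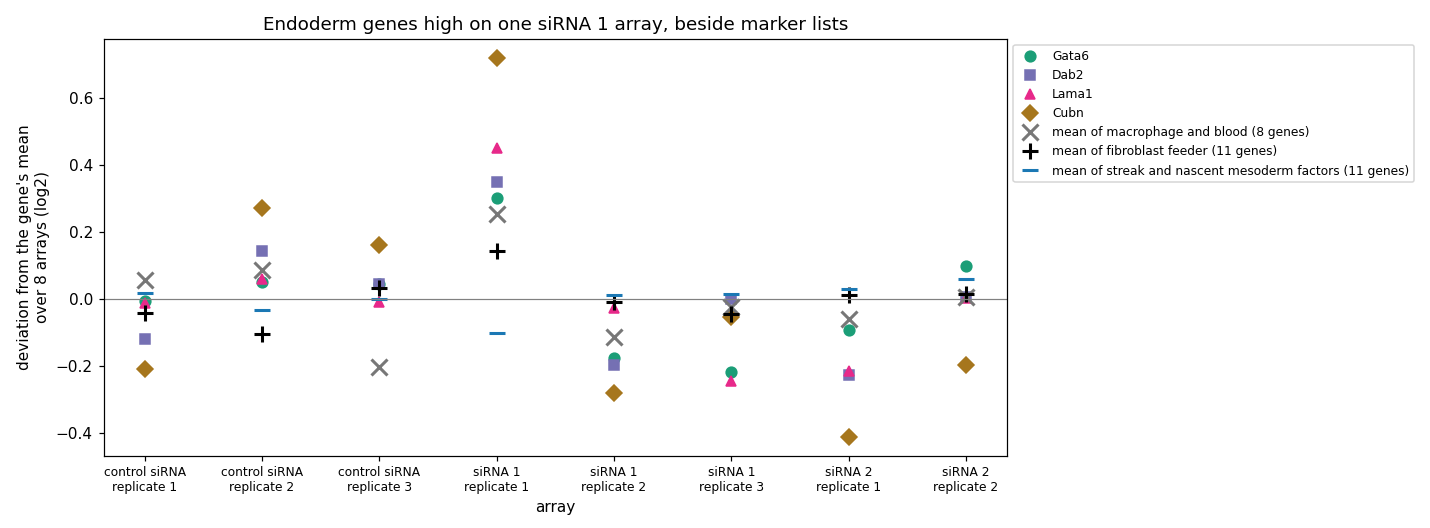
Deviation of Gata6, Dab2, Lama1 and Cubn from their own means over the 8 arrays (log2), with the mean deviation of macrophage, fibroblast and streak gene lists. On siRNA 1 replicate 1 the 4 genes, chosen for their high values on that array, average 0.45. The macrophage list averages 0.25 there and the streak factors -0.10.

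The averages of these 4 genes fell when that array was left out. They were chosen for their peak on it, so the direction was fixed beforehand. Without siRNA 1 replicate 1, Cubn differed by -0.31 (SE 0.11), Gata6 by -0.13 (SE 0.06), Dab2 by -0.13 (SE 0.08) and Lama1 by -0.13 (SE 0.07) for the average of both siRNAs, against -0.16, -0.04, -0.05 and -0.04 with all arrays. In that fit 10 members had an unadjusted p under 0.05 (30.3%), 7 higher and 3 lower, and 18.0% of all genes did, with 0 called by limma. Over the 8 arrays the members spread slightly more than other genes: the median SD over the 8 arrays was 0.12 for the members and 0.09 for all genes. Of the members 5 had an SD above that of 95% of genes: Mixl1, Lhx1, Dab2, Lama1 and Cubn. Of the 33 members, 13 had their highest value on siRNA 1 replicate 2 (39.4%), where 23.5% of all genes did. That array had the highest lower quartile, 6.98, and siRNA 1 replicate 1 the lowest, 6.81. A fit over all arrays that adjusted for this quartile gave averages of 0.07 for Cubn, 0.06 for Gata6, 0.08 for Dab2 and 0.07 for Lama1. Each of these was negative without the adjustment. Pdgfra also turned from lower to higher, while Evx1, Tbx6 and Nkx2-5 turned from higher to lower. Why these signs turned was not tested.

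Genes of the same lineages outside the list also gave no call. In the average comparison 6.31% of all genes had an unadjusted p under 0.05, 3.28% higher and 3.03% lower. Of 30 other mesoderm genes, limma called 0, 19 differed by more than 0 and 11 by less, the median being 0.04. Of the 30, 4 had an unadjusted p under 0.05, 1 higher and 3 lower. These were Bmp4, a ligand that induces mesoderm, at 0.19 (SE 0.06), and, lower, the Notch ligand Dll1 at -0.33 (SE 0.10), the angiopoietin receptor Tek at -0.28 (SE 0.07) and the helix-loop-helix factor Twist1 at -0.14 (SE 0.05). Of 30 other endoderm genes 28 were measured, 0 were called, and 18 had a difference above 0 and 10 below, the median being 0.01. Cer1 at -0.32 (SE 0.09) and the apolipoprotein Apoa2 at 0.19 (SE 0.06) had an unadjusted p under 0.05, and Pdx1 at 0.15 (SE 0.07) and Thbd at 0.09 (SE 0.06) followed. Unadjusted p under 0.05 was reached by 0 of 15 stem cell markers, 0 of 8 trophectoderm markers and 1 of 6 neuroectoderm markers, Map2 at -0.19 (SE 0.05). The trophectoderm list includes Eomes and Hand1, which are also members. Limma called 0 genes of these lists.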

How the data were processed

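Total RNA of 8 samples was hybridised to Affymetrix arrays, 1 array per sample, and groups and replicate numbers came from the sample titles. The deposited table holds log2 values per probe set from RMA, run by the authors according to their processing notes. Version, software and build: not given in the sources used here. Since RMA aligns the distributions of the arrays, it would hide a change common to most genes. The titles mention differentiation, whereas the series title and growth protocol name pluripotent conditions, which the text follows.

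Of 28815 probe sets, 21780 had 1 gene symbol in the annotation table used, 1605 had several and 5430 none. Where several probe sets shared a gene, the one brightest on average was taken, giving 19935 genes, 998 of them with a choice. Limma 3.58.1 in R 4.3.3 (lmFit, eBayes) fitted a mean per group over all 8 arrays. Comparisons with control were made for both siRNAs averaged and for each alone, and siRNA 2 was set against siRNA 1. All p-values were two-sided, adjusted by Benjamini-Hochberg over all genes and called under 0.05. The script was tested on simulated data. Exact permutation tests enumerated the splits of the arrays compared. Tables and figures used Python 3.11.15, pandas 2.3.3, numpy 2.4.6 and matplotlib 3.10.9.

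All members were named. For each siRNA alone and between the siRNAs, members with an unadjusted p under 0.05 were named, and from each list at most 4 genes with the smallest unadjusted p on average. Ppp3cb, Dcn and the group of 4 endoderm genes were added after their values were seen. Members and lists were chosen with earlier results of these data known. The labels do not say that the replicate numbers pair samples. Same-numbered arrays had correlations of deviations from -0.55 to 0.22, so numbers were not taken to pair samples. Arrays with different numbers had correlations from -0.22 to 0.55, the highest for siRNA 1 replicate 1 with siRNA 2 replicate 2. The deviations of the 2 siRNA 2 arrays mirror each other. What such arrays share was not tested. In all, 19 alternatives were tried, on normalization, filtering, weighting, probe sets, moderation, samples, a replicate block and left-out arrays.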

Additional observations from a re-analysis of the deposited data

Results flagged for a closer look

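For Mixl1 and Lhx1 the siRNAs lay on opposite sides of the control mean: every siRNA 1 array lay below it and every siRNA 2 array above it. The difference of siRNA 2 minus siRNA 1 was 0.3108 for Mixl1 and 0.3586 for Lhx1 on the log2 scale. From the control mean, Mixl1 deviated by -0.10, -0.30 and -0.04 with siRNA 1 and by 0.01 and 0.32 with siRNA 2, and Lhx1 by -0.23, -0.34 and -0.28 and by 0.03 and 0.12. The control arrays themselves deviated by 0.13, 0.03 and -0.16 for Mixl1 and by 0.04, -0.07 and 0.04 for Lhx1. Within the control range lay siRNA 1 replicates 1 and 3 and siRNA 2 replicate 1 for Mixl1, and siRNA 2 replicate 1 for Lhx1. Placement of the siRNAs on opposite sides of the control mean occurred for 2 of 33 members (6.06%) and 610 of 19935 genes (3.06%). The limma test of the difference gave an adjusted p of 1.00 for both, with ranges over the alternatives from 0.256 to 1.00 for Lhx1 and from 0.443 to 1.00 for Mixl1. No cause was tested.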

How the results depend on the processing

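The average difference kept its sign for 15 of 33 members, Sparc, Ttr, Amn and Lhx1 among them, in every alternative fit that held the gene. Of these fits 17 held all members, the filter at the median mean held 17 of the 33 (Sparc and Lhx1, not Ttr or Amn), and fits of only the groups compared give no average. Calls differed from 0 in these cases. With array weights 14 of 19935 genes and 0 of 33 members were called for the average of both siRNAs. For siRNA 1 that setting called 1436 of 19935 genes and 5 of 33 members. With trend and robust moderation, eBayes called 3 genes between the siRNAs, 0 of them members. Members at an unadjusted p under 0.05 are given with the share of all genes. For the average they numbered 2 of 33 (6.06%; all genes 6.31%). They numbered 1 of 17 with the filter at the median mean (5.88%; 7.75%), 8 with array weights (24.2%; 21.4%), 1 with the replicate block (3.03%; 4.43%), and 5 without siRNA 1 replicates 1 and 2 together (15.2%; 14.8%). Leaving out 1 array gave 1 to 10. The 1 (3.03%) came without control replicate 1 (all genes 4.81%), control replicate 2 (2.22%) or siRNA 2 replicate 1 (4.17%). A count of 4 (12.1%; 6.88%) came without siRNA 2 replicate 2, and the 10 (30.3%; 18.0%) without siRNA 1 replicate 1. For siRNA 1 they numbered 3 (9.09%; 5.33%), 10 with array weights (30.3%; 29.0%), 6 with the lower quartile as a covariate (18.2%; 6.998%), 6 without both replicates (18.2%; 12.3%), and 2 to 12 without 1 array, the 12 being 36.4% against 20.1%. For siRNA 2 they numbered 1 (3.03%; 6.07%), 2 with quantile normalization repeated (6.06%; 7.83%), 3 with array weights (9.09%; 9.73%), 3 with only the groups compared (9.09%; 11.5%), 3 with the lower quartile (9.09%; 8.70%), 3 without both replicates (9.09%; 11.5%), and 0 to 4 without 1 array, the 4 being 12.1% against 9.93%. Between the siRNAs they numbered 2 (6.06%; 4.48%), 1 with the replicate block (3.03%; 2.77%), 5 with the lower quartile (15.2%; 8.98%) and 2 to 7 without 1 array, the 7 being 21.2% against 7.50%, and the members' median ran from -0.0688 to 0.0056. With the filter at the median mean, they numbered 4 of 17 for siRNA 1 (23.5%; 6.33%) and 1 of 17 for siRNA 2 (5.88%; 9.23%). Between the siRNAs that filter gave 2 of 17 (11.8%; 7.7%). The highest of these counts came without siRNA 1 replicate 1 in each comparison. The 0 for siRNA 2 came without control replicate 1 or 2. The block turned 0 member signs for the average. Since the numbers were not taken to pair arrays, it was not read for the size of the effects.

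The sign of these averages, all smaller than their SE, turned with the setting. Repeated quantile normalization gave -0.01081 for Mixl1, -0.01441 for Evx1, 0.00806 for Snai1 and 0.00015 for Lama1. Median centring gave -0.00342 for Mixl1 and -0.00847 for Eomes. Array weights gave 0.01015 for Mesp1, 0.01508 for Snai1, 0.02573 for Sox17 and 0.01002 for Foxa1. Without siRNA 1 replicates 1 and 2, Mesp1 was 0.00654 and Snai1 0.01534. With the lower quartile as a covariate the values were -0.02592 for Evx1, -0.03345 for Tbx6, 0.03038 for Pdgfra, -0.01539 for Nkx2-5, 0.06095 for Gata6, 0.08405 for Dab2, 0.07179 for Lama1 and 0.06786 for Cubn. Leaving out 1 array gave -0.07045 to 0.08444 for Mixl1, -0.04168 to 0.04718 for Eomes, -0.06953 to 0.01696 for Mesp1, -0.00772 to 0.05381 for Evx1, -0.0521 to 0.0216 for Kdr, -0.03065 to 0.04168 for Pdgfra, -0.05581 to 0.00696 for Snai1 and -0.00768 to 0.09886 for Nkx2-5. It gave -0.00502 to 0.08359 for Gata4, -0.12704 to 0.00316 for Gata6, -0.1127 to 0.09006 for Sox17, -0.05098 to 0.03312 for Foxa1, -0.03424 to 0.05818 for Foxa2, -0.12692 to 0.00938 for Dab2, -0.09487 to 0.00879 for Hnf4a and -0.13324 to 0.04061 for Lama1. The cause was not tested. Adjusted p over the alternatives ran from 0.0224 to 1.00 for Lhx1 and 0.0427 to 1.00 for Ttr with siRNA 1, and from 0.121 to 1.00 for Sparc and 0.119 to 1.00 for Ttr on average. The low signal of Mesp1, Tbx5, Afp and Ttr limits what a difference in them can show.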
